A study of Bos taurus and Bubalus bubalis with 9 samples.

Results

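PPARG, the peroxisome proliferator-activated receptor gamma gene, was followed through its circular RNAs (circRNAs) and its mRNA in longissimus dorsi muscle and back subcutaneous fat. Its members were taken as the rows with the symbol PPARG in the deposited circRNA tables, and the transcripts that those rows list were looked up in the buffalo mRNA table. This gave 6 of 18535 back-splice junctions in the cattle table, 10 of 10701 in the buffalo table, and 3 of 19917 transcripts. All 6 cattle junctions have the same ends as a row of the buffalo table. The 9 libraries used were 3 of muscle from Xinyang buffalo, labelled low in intramuscular fat (IMF), 3 of muscle from Nanyang cattle, labelled high in IMF, and 3 of adipose tissue from Nanyang cattle. All animals were castrated, fattened under equivalent management and slaughtered at 30 months of age, and no genotype or further treatment is given. The labels name 3 cattle but do not tie a muscle library to the adipose library of the same animal. IMF was not sequenced apart from the muscle around it.

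PPARG is a nuclear receptor that binds DNA together with a retinoid X receptor and is activated by fatty acids and their derivatives. It is known as the central regulator of fat cell formation, and its targets include genes of lipid uptake, storage and synthesis. A circRNA arises when a downstream splice donor of a transcript is joined to an upstream splice acceptor, and only reads across that back-splice junction tell it from the linear mRNA of the gene. Such reads do not show which exons lie within the circle.

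The circRNA tables give RPM, junction reads scaled by the size of the library, and each value was a whole multiple of the RPM of 1 read, so reads could be recovered. The library totals implied by this step were 35712276 to 42265538 in cattle and 60015033 to 65777231 in buffalo. The junction reads of all genes numbered 12042 to 27141 in a cattle library and 4472 to 6122 in a buffalo muscle library. The labelled tissues were checked by 15 skeletal muscle markers, whose summed circRNA level was 16.5 to 23.6 RPM in cattle muscle, 10.3 to 12.0 RPM in buffalo muscle and 0 to 0.0269 RPM in cattle adipose tissue. NEB, the giant thin-filament protein nebulin, carried nearly all of this sum, with 607, 968 and 691 of 623, 996 and 715 reads in cattle muscle 1 to 3, and 6 of the 15 genes had no cattle muscle read. An adipocyte list could not serve as the matching check, because 8 of its 11 genes had no circRNA read in any adipose library, among them ADIPOQ and LEP.

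PPARG circRNAs were found in every cattle adipose library. Their summed level was 0.461, 0.618 and 0.566 RPM in cattle adipose tissue 1 to 3, from 17, 23 and 22 reads. In cattle muscle it was 0, 0 and 0.0840 RPM, and the only reads were 3 in cattle muscle 3. The means were 0.549 ± 0.0799 RPM in adipose tissue and 0.0280 ± 0.0485 RPM in muscle (SD, n = 3 each). Every adipose library was higher than every muscle library. In a muscle library without a read, 3 reads would be 0.0794 RPM in cattle muscle 1 and 0.0710 RPM in cattle muscle 2, and the absence of reads does not show a level of 0.

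**Figure D1:**
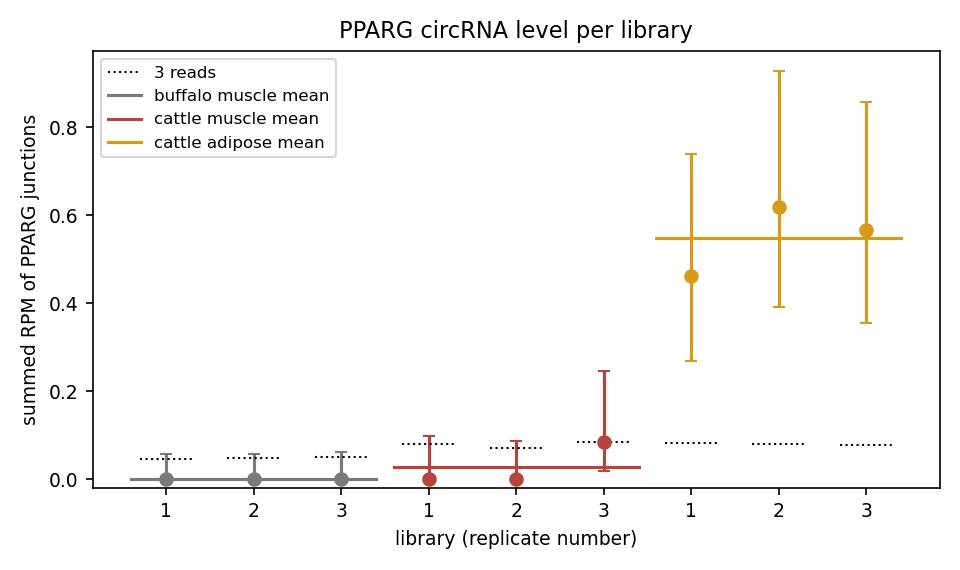
The vertical axis is the summed RPM of all PPARG back-splice junctions in each of 9 libraries, with exact 95% Poisson intervals that cover counting error only, coloured lines at the group means and dotted lines at the level of 3 reads. The 3 adipose libraries lie between 0.461 and 0.618 RPM, and the only muscle library above 0 is cattle muscle 3, at 0.0840 RPM.

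The difference between the cattle tissues was tested with limma on log2(RPM + 0.1), with the junctions of each host gene summed and 1837 host genes in the fit. PPARG was higher in adipose tissue by 2.40 ± 0.41 (SE) on this scale, with a Benjamini-Hochberg adjusted p of 0.000477 by limma. This scale understates changes of low values. By pooled reads, 62 in adipose tissue against 3 in muscle, the ratio of RPM was 21.2, with an exact 95% interval of 6.92 to 106 for counting error. This ratio depends on cattle muscle 3, which held all 3 muscle reads. The muscle mean was 0 RPM without that library, and 0.0420 RPM without cattle muscle 1 or without cattle muscle 2. Of all host genes tested, 1.63% were called higher in adipose tissue and 5.23% lower, and 8.27% had every adipose library above every muscle library. PPARG could pass the filter, at least 2 reads in at least 3 of the 6 libraries, only because adipose libraries had reads. The exact two-sided permutation test on RPM gave p = 0.1, the smallest that 20 arrangements of 3 against 3 allow. Over all alternatives and left-out libraries, the adjusted p of limma, edgeR or DESeq2 ranged from 1.16e-05 to 0.0151.

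Against the other circRNAs of the same library, PPARG took 0.141%, 0.109% and 0.155% of junction reads in cattle adipose tissue 1 to 3 and 0.0137% in cattle muscle 3. The ratio of the group means was 29.6 on this share and 19.6 on RPM, so the scale moved the size by more than 1.5 times. Both ratios rest on the reads of cattle muscle 3, without which the muscle mean was 0 RPM. The tissues are mixtures of cells, and more cells that carry PPARG circRNAs cannot be told apart from more of these circRNAs per cell. The skeletal muscle markers moved the opposite way, as given above. For 12 macrophage markers the summed level was 0.0529 to 0.336 RPM in cattle muscle and 0.0807 to 0.190 RPM in cattle adipose tissue, and 8 of the 12 had no read in adipose tissue. For 7 endothelial markers it was 0.224 to 0.397 RPM in muscle and 0.0515 to 0.349 RPM in adipose tissue, with 2 of the 7 at 0 there. Adipocyte markers summed to 0 to 0.0710 RPM in muscle and 0.0269 to 0.103 RPM in adipose tissue. The part of cell composition in the PPARG difference was not tested.

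In buffalo muscle all 10 PPARG rows were at 0 in all 3 libraries. Buffalo reads were mapped to the cattle genome, and the absence of reads does not show a level of 0. The level of 3 reads was 0.0456, 0.0471 and 0.04999 RPM in buffalo muscle 1 to 3 and 0.0158 RPM over the group. These rows are in the buffalo table, which also covers buffalo adipose libraries that were not used here. Buffalo and cattle circRNAs are listed in separate tables, with each value scaled by its own library, and no test was made between species. Side by side, the pooled level was 0 RPM in buffalo muscle and 0.0259 RPM in cattle muscle, with an exact 95% interval of 0.00534 to 0.0757 that holds the 3-read level of the buffalo group. As a share of the fewer junction reads in buffalo muscle, the same 3 reads are 0.0189% of 15890, which is above the pooled share of 0.00465% in cattle muscle and below that of 0.131% in cattle adipose tissue.

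All PPARG junctions lie on the minus strand of chromosome 22 of the cattle genome UMD3.1, and the tables class each as exonic. The 6 cattle junctions use 2 donor ends, at 57384980 and 57396661, and 3 acceptor ends, at 57411011, 57413011 and 57468411. Each of the 6 possible pairs of these ends was found. Since the gene reads toward lower coordinates, 57468411 is the most upstream acceptor. The 4 rows of the buffalo table alone add the donor ends 57402335 and 57410842 and the acceptor ends 57396860 and 57402473. Together the ends bracket stretches of 200 bp (chr22:57396661-57396860), 139 bp (chr22:57402335-57402473) and 170 bp (chr22:57410842-57411011), each with an acceptor at its upstream and a donor at its downstream side.

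The junction with the most reads was chr22:57396661-57411011, which spans 14.4 kb. It had 0.109, 0.242 and 0.283 RPM in cattle adipose tissue 1 to 3, from 4, 9 and 11 reads, and none in cattle muscle. With no muscle read, it could pass the filter only through all 3 adipose libraries, so that the groups could not overlap and the test below describes a junction that had to be higher in adipose tissue. Of the 1917 junctions tested, 7.93% had every adipose library above every muscle library. Its pooled adipose RPM was 8.21 times the level of 3 reads over the muscle group. That value leaves out the counting error of the adipose reads and is not a lower bound of the ratio. On log2(RPM + 0.1) the difference was 1.59 ± 0.36 (SE), with an adjusted p of 0.0182 by limma, where 0.887% of all junctions tested were called higher and 5.53% lower in adipose tissue. The call was lost when any library other than cattle adipose tissue 1 was left out, with adjusted p of 0.0542 to 0.108 by limma, and it was kept without cattle adipose tissue 1, at 0.0194. It was also lost with a pseudocount of 1 RPM, at an adjusted p of 0.0789 by limma.

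The longest junction, chr22:57384980-57468411, spans 83.4 kb. It had 3, 3 and 7 reads in cattle adipose tissue 1 to 3 and none in muscle. Its pooled adipose RPM was 4.44 times the 3-read level of the muscle group, again without the counting error of the adipose reads. Its difference on log2(RPM + 0.1) was 1.07 ± 0.35 (SE) and missed the threshold, with an adjusted p of 0.0869 by limma. With edgeR and TMM factors on the recovered reads the adjusted p was 0.0476. The junction chr22:57384980-57413011, with a span of 28.0 kb, had 2, 5 and 2 reads in adipose tissue and none in muscle, at 3.08 times that 3-read level. Its adjusted p by limma was 0.199, for a difference of 0.82 ± 0.34 (SE). Both junctions had also passed the filter only through their adipose libraries, which fixed that the groups did not overlap.

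The junction chr22:57384980-57411011, with a span of 26.0 kb, held all 3 muscle reads, in cattle muscle 3. In adipose tissue it had 6 and 4 reads in libraries 1 and 2 and none in library 3, so the tissues overlapped. The ratio of pooled RPM was 3.42 with an exact 95% interval of 0.880 to 19.3. Neither limma, at an adjusted p of 0.611 for a difference of 0.52 ± 0.43 (SE), nor the exact permutation test, at p = 0.4, separated the tissues. Below the filter were chr22:57396661-57468411, a junction of 71.8 kb with 1, 2 and 2 adipose reads and none in muscle, and chr22:57396661-57413011, a junction of 16.4 kb with a single read in cattle adipose tissue 1. Of the 6 junctions, 4 passed the filter, of which 3 had reads in adipose libraries only. Each single junction thus rests on few reads, and their sum is the better measured quantity.

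**Figure D2:**
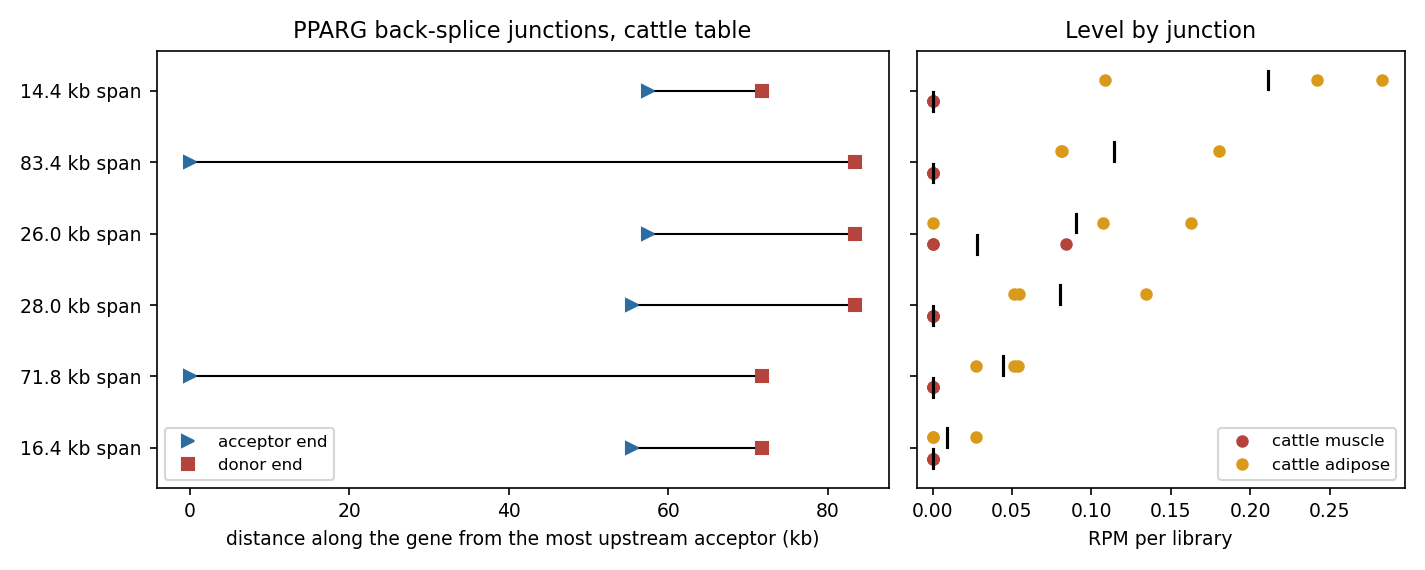
The left panel draws the 6 junctions as lines from acceptor to donor end, with distance in kb from the most upstream acceptor along the gene. The right panel gives RPM in each cattle library as points, with a black bar at each group mean. Only the junction of 26.0 kb has a muscle library above 0, at 0.0840 RPM.

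The adipose reads were spread over both donor ends and all 3 acceptor ends. The donor at 57384980 took 32 of 62 adipose reads, or 51.6% (exact Clopper-Pearson 95% interval 38.6 to 64.5), and the donor at 57396661 the other 30. By library the share of the donor at 57384980 was 64.7%, 52.2% and 40.9% in cattle adipose tissue 1 to 3. The exact intervals of these shares, 38.3 to 85.8, 30.6 to 73.2 and 20.7 to 63.6, overlapped. The acceptor at 57411011 took 54.8% of the reads (41.7 to 67.5), that at 57413011 took 16.1% (8.02 to 27.7), and that at 57468411 took 29.0% (18.2 to 41.9). These are shares of reads pooled over 3 libraries, and within each library the intervals of all 3 acceptors overlapped. Junctions that end at 57468411 are assigned in the tables to ENSBTAT00000001760 and ENSBTAT00000044042, and the others also to ENSBTAT00000044038.

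The span of the 6 cattle PPARG junctions was set beside all junctions of that table. The median span of all exonic cattle junctions was 10.3 kb. The shortest cattle PPARG junction was longer than 60.4% of them, and the longest was longer than 97.3%. Of the 4 rows in the buffalo table alone, the shortest spans were 2.17 and 5.81 kb. Of the 4757 host genes with a symbol, 81.0% had fewer junctions than PPARG, and the median was 2. No junction of another symbol overlapped those of PPARG.

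Proteins that work with PPARG were grouped as partners, namely the retinoid X receptors, the other PPARs, coactivators and corepressors. Of 21 partners 13 had cattle circRNA reads and 7 were tested, and none was called in either direction by limma, where 1.63% of all host genes were called higher and 5.23% lower. Their median difference on log2(RPM + 0.1) was -0.13, beside -0.02 over all host genes. NCOA6, a nuclear receptor coactivator, had 7, 4 and 6 reads in cattle muscle 1 to 3 and 13, 12 and 10 reads in adipose tissue 1 to 3. These did not overlap, as for 8.27% of all host genes in this direction, and the difference was 0.73 ± 0.40 (SE) with an adjusted p of 0.362 by limma. NCOA2 and CREBBP, further coactivators, overlapped between tissues, at -0.03 and -0.24. PPARGC1A, the coactivator known for mitochondrial biogenesis, had 8, 8 and 9 reads in muscle and 0, 5 and 0 in adipose tissue, at -1.25 ± 0.43 (SE) and an adjusted p of 0.0862 by limma. PPARGC1A is named for its values after they were seen. It had passed the filter through its muscle libraries, and it was called when cattle adipose tissue 2, the only adipose library with PPARGC1A reads, was left out, which leaves adipose tissue at 0.

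Of 19 adipogenic factors, which are transcription factors and insulin pathway receptors of fat cell formation, 7 had reads and 6 were tested, and none was called, against the same shares over all host genes. Their median difference was 0.24, beside -0.02 over all host genes. INSR, the insulin receptor, had the most circRNA of the list, with 59, 66 and 81 reads in cattle muscle and 33, 27 and 19 in adipose tissue. Its adipose libraries were all below its muscle libraries, at -1.25 ± 0.41 (SE) with an adjusted p of 0.0712 by limma, and 12.5% of all host genes did not overlap in this direction. In buffalo muscle INSR had 44, 55 and 51 reads, while PPARG had none. EBF1, an early transcription factor of the fat lineage, had 4, 6 and 0 reads in cattle muscle and 11, 11 and 16 in adipose tissue, at 1.34 ± 0.43 (SE) with an adjusted p of 0.0619 by limma. INSR passed the threshold with a pseudocount of 1 RPM, with edgeR and TMM and with DESeq2, and EBF1 with the replicate block and the filter of 5 reads. EBF1 could pass the filter, of 2 reads or of 5, only because its adipose libraries had reads. EBF3 overlapped between tissues, at -0.09.

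Of 30 PPARG target genes of lipid storage and synthesis, 8 had reads in cattle and 3 were tested, with a median difference of 0.76. The only call was ACACA, beside 1.63% of all host genes called higher and 5.23% lower. ACACA encodes acetyl-CoA carboxylase, the enzyme that commits acetyl-CoA to fatty acid synthesis. Its circRNAs had 0, 2 and 0 reads in cattle muscle 1 to 3 and 17, 29 and 21 in adipose tissue 1 to 3, or 0.461, 0.780 and 0.541 RPM. The difference was 2.58 ± 0.41 (SE) with an adjusted p of 0.000145 by limma, and among differences toward adipose tissue it was the only one larger than that of PPARG. Host genes lower in adipose tissue reached larger differences, up to NEB at -7.48, and PPARG was at rank 23 of the fit by p. Like PPARG, ACACA passed the filter only because its adipose libraries had reads. GPAM, the first enzyme of glycerolipid synthesis, had 2, 4 and 3 muscle reads and 1, 19 and 7 adipose reads. PLIN4, a lipid droplet coat protein, had 5, 0 and 0 muscle reads and 2, 6 and 7 adipose reads. Both overlapped between tissues, with adjusted p of 0.539 and 0.400 by limma. The hallmark targets FABP4 and PLIN1 had at most 3 reads in any library, and ADIPOQ, LEP and FASN had none.

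**Figure D3:**
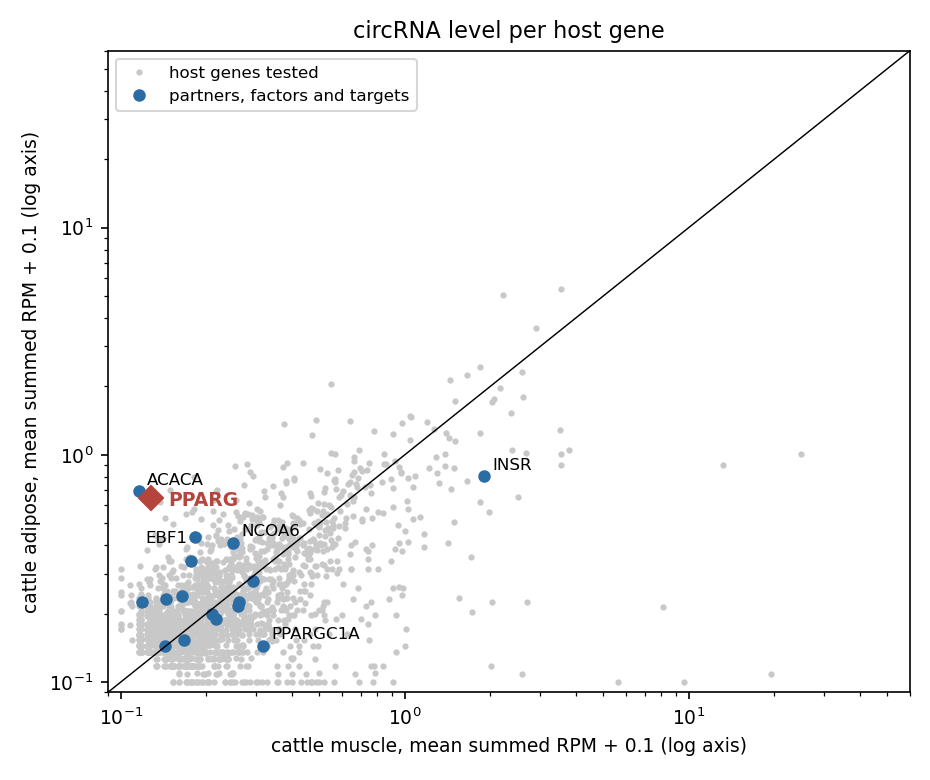
Each point is a host gene, with its mean summed RPM + 0.1 in cattle muscle on the horizontal and in cattle adipose tissue on the vertical log axis, and the line marks equal levels. PPARG, at 0.0280 and 0.549 RPM before the 0.1 is added, lies near ACACA at the left, and INSR and PPARGC1A lie below the line.

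The 5 host genes whose pattern over the 6 cattle libraries was nearest to that of PPARG, by Euclidean distance of centred log2(RPM + 0.1), were GOSR1, RNF111, ACACA, ADAMTS16 and CLOCK. Their distances were 0.759, 1.06, 1.08, 1.203 and 1.205. GOSR1, a Golgi SNARE protein, matched PPARG also within muscle, since its only muscle reads were 4 in cattle muscle 3, and it had 9, 24 and 26 reads in adipose tissue. RNF111, a ubiquitin ligase, was far higher in both tissues, at 0.451 RPM in muscle and 1.95 RPM in adipose tissue on average. ADAMTS16, a secreted metalloproteinase, had 0, 5 and 1 reads in muscle and 18, 27 and 23 in adipose tissue. CLOCK, the circadian transcription factor, had 6, 7 and 9 reads in muscle and 21, 28 and 31 in adipose tissue. All 6 libraries enter each distance, so it says only that these levels moved alike between the same libraries.

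PPARG mRNA was measured in buffalo muscle, in FPKM, fragments scaled by transcript length and library size. Cattle mRNA was not analysed here. The transcript ENSBTAT00000001760 had 4.13, 1.77 and 2.83 FPKM in buffalo muscle 1 to 3. As log2(FPKM + 1) its level was 1.92 ± 0.45 (SD, n = 3), and its mean FPKM was above that of 49.3% of the listed transcripts. ENSBTAT00000044038 had 0.548 FPKM in buffalo muscle 2 and ENSBTAT00000044042 had 0.625 FPKM in buffalo muscle 3, and both were near 0 in the other libraries. Summed over the 3 transcripts PPARG came to 4.13, 2.32 and 3.46 FPKM, of which ENSBTAT00000001760 held 99.998%, 76.4% and 81.9%. The transcripts share exons, so this split is an estimate, and the read depth behind it is unknown. PPARG mRNA was thus listed above 0 in every buffalo muscle library, while no PPARG back-splice read was found in the same 3 libraries. Those libraries held 4472 to 6122 junction reads of all genes, and buffalo reads were mapped to the cattle genome. The absence of reads therefore does not show that PPARG forms no circRNA there.

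The other receptors of the family were higher in buffalo muscle than PPARG in each library on this length-scaled measure. PPARA, the receptor of fatty acid oxidation, had 100.9, 52.5 and 48.5 FPKM, and PPARD had 29.8, 15.7 and 16.1 FPKM. These 3 receptors did not overlap, so that the order was PPARA, PPARD and PPARG. RXRA, the binding partner, had 89.4, 53.8 and 68.1 FPKM, and RXRG had 23.6, 7.002 and 9.30 FPKM. Over all 6191 other genes with a named transcript, 64.1% had every value above the PPARG range and 14.9% every value below it, taking the highest transcript of each gene. Those below include 31 genes listed at 0 in all 3 libraries, which can be failed estimates, since NEB and MYH1, genes of muscle fibres, are among them. Of 16 partners with a named transcript, 15 had every value above the PPARG range, and PRDM16, a factor of brown fat, had every value below it. All 9 adipogenic factors with a named transcript were above it. Of 17 targets, 11 were above, CIDEC, PCK1 and PLIN1 were below, and ADIPOQ, FABP4 and LIPE overlapped with PPARG.

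**Figure D4:**
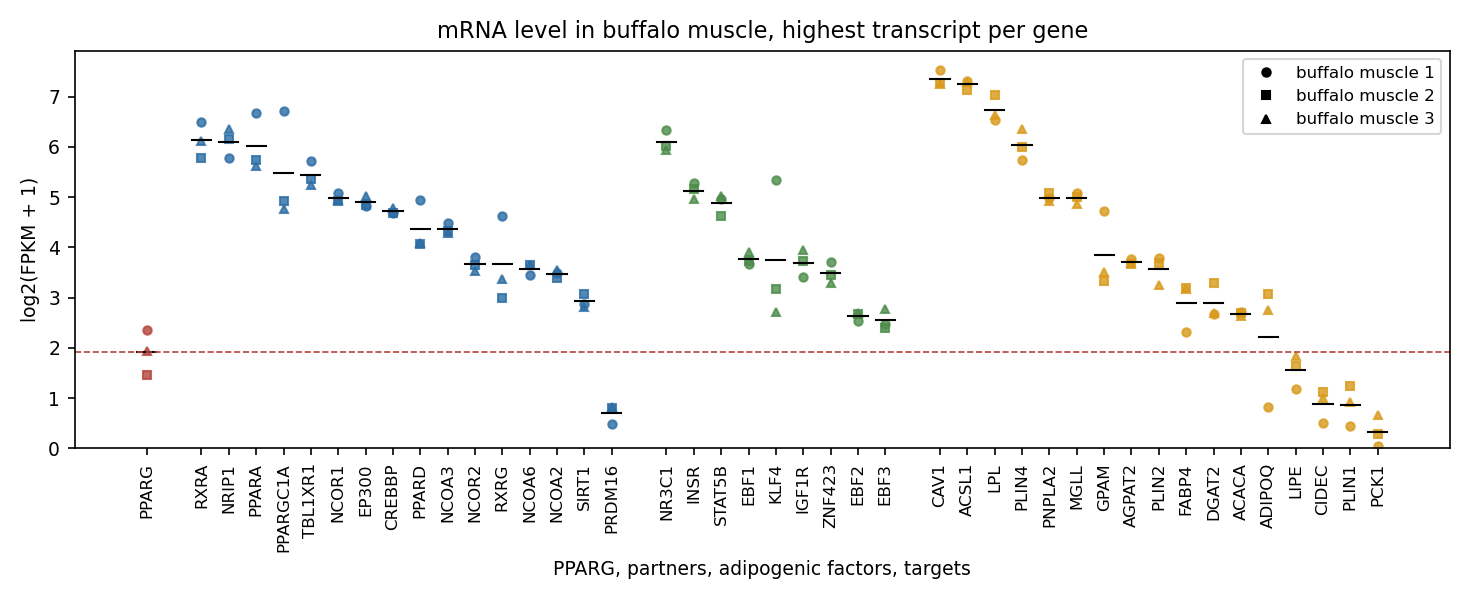
The vertical axis is log2(FPKM + 1) in buffalo muscle 1 to 3, shown by marker shape, for the highest named transcript of PPARG (red), its partners (blue), adipogenic factors (green) and targets (yellow), with black bars at the means. The dashed line is the PPARG mean of 1.92, and PRDM16 is the only partner below it.

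PPARG was highest in buffalo muscle 1, and so were 43.2% of the 12618 transcripts with a mean of at least 1 FPKM. None of the 8 adipocyte markers with a named transcript was highest in that library. Of these markers, CIDEC, PCK1 and PLIN1 had means of 0.874, 0.278 and 0.870 FPKM, below the cut of that share. ADIPOQ, the adipocyte hormone, had 0.776, 7.40 and 5.77 FPKM in buffalo muscle 1 to 3. FABP4, a fatty acid carrier of adipocytes, had 3.97, 8.20 and 7.99 FPKM, and PLIN1, the adipocyte lipid droplet protein, had 0.367, 1.35 and 0.890 FPKM. PPARG mRNA and these markers thus had their highest values in different animals. Of the other lists, 8 of 13 skeletal muscle markers, 7 of 10 macrophage markers, 3 of 6 endothelial markers, 9 of 16 partners, 4 of 9 adipogenic factors and 7 of 17 targets were highest in buffalo muscle 1. Among the 13 skeletal muscle markers, 2, MYH1 and NEB, were at 0 in all 3 libraries and could not be highest in any. The lists, unlike the share of 43.2%, were not limited to means of at least 1 FPKM. The part of any cell type in the PPARG level was not tested.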

How the data were processed

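The authors trimmed reads with Trim Galore, mapped buffalo and cattle reads alike to the UMD3.1 assembly of cattle by STAR, and assembled them with Cufflinks 2.2.1. The authors deposited circRNA tables in RPM per back-splice junction, and how circRNAs were called is not given in the sources used here. The deposited mRNA table holds FPKM per transcript from Cuffdiff. The buffalo tables hold 9 further columns that were not used, and no lncRNA value was used. In all circRNA columns 100% of values above 0 were whole multiples of the smallest within 0.01 reads. Reads were recovered from this step.

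limma 3.58.1 (R 4.3.3) was fitted on log2(RPM + 0.1) over the cattle junctions, and over their sums per host gene, with at least 2 reads in 3 of 6 libraries. Benjamini-Hochberg adjustment covered all of them, with a threshold of 0.05. Alternatives were a pseudocount of 1 RPM, no filter, 5 reads, the replicate number as a block, edgeR 4.0.16 with and without TMM, DESeq2 1.42.0, and each library left out. The genes kept by the filter on all 6 libraries were also used when a library was left out. For the mRNA values the alternatives were a pseudocount of 0.1 and rescaling to equal sums. Names were paired with 6807 of 19917 transcripts. Intervals cover counting error only.

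Members, lists and tests were chosen with earlier results of these data known. That includes the pseudocount of 0.1, which an earlier simulation on these data had shown to recover more changes than 1 RPM. The rule for named genes took all PPARG rows, list members that passed the test, the 3 members of each list with the most circRNA, the 5 nearest host genes and list members with a named transcript. The set of genes used with a library left out, and 1 of the simulated fold sizes, were settled after first outputs had been seen. With that set of genes, the PPARG sum was called with each of the 6 libraries left out.

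On simulated data with 200 of the 1837 host genes changed, limma recovered 30.3% of 4-fold and 88.0% of 16-fold changes with 7.31% false calls, above the 5% aimed at. edgeR recovered 29.7% and 90.3% with 2.17% false calls. At junction level, with 1917 junctions, limma recovered 25.7% and 79.3% with 6.80% false calls. The simulated counts had the same assumed spread between libraries for every feature, not estimated from these data, and the rates hold for that setting only. No sequence of PPARG was used here.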

Additional observations from a re-analysis of the deposited data

How the results depend on the processing

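The summed PPARG circRNA level was called higher in cattle adipose tissue under each of the 8 other settings and with each of the 6 libraries left out. These fits share the same few reads and are not independent support, and the exact permutation test on RPM gave p = 0.1. Under the filter of 2 reads or of 5, the PPARG sum could pass only through its adipose libraries. With a library left out the log2 difference was 2.25 to 2.69, and without its most-read junction, a setting chosen after seeing the data, it was 1.83. With a pseudocount of 1 RPM it was 0.59. The count of PPARG junctions called, 1 in the fit reported, was 0 with a pseudocount of 1 RPM, 0 with the filter of 5 reads, under which no PPARG junction could be tested, 2 with edgeR and TMM, and 0 to 1 with a library left out.

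Host genes called higher in adipose tissue numbered 30, and 16 with a pseudocount of 1 RPM and 4 to 23 with a library left out. Those called lower numbered 96, and 54 and 33 to 124. Junctions called higher numbered 17, and 3 with a pseudocount of 1 RPM, 26 with edgeR and TMM, 11 with edgeR without TMM, and 1 to 12 with a library left out. Those called lower numbered 106, and 59 with a pseudocount of 1 RPM and 46 to 94 with a library left out. Over the lists, 1 gene was called higher, and 2 with the filter of 5 reads. None was called lower, and 1 was with a pseudocount of 1 RPM, with edgeR and TMM and with DESeq2, and 0 to 1 with a library left out.

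With the replicate number as a block, the PPARG log2 difference was 2.40 with an adjusted p of 0.000168 by limma, 37 junctions were called higher and 166 lower, and 2 list genes were called higher. Same-numbered muscle and adipose libraries correlated by 0.076, 0.076 and 0.010 in their deviations over 1837 host genes. Each correlated best with its own number, but the deviations were taken within each tissue, so these correlations depend on each other. Library 1 had the fewest and library 2 the most junction reads in both tissues, at 15440 and 27141 in muscle and 12042 and 21053 in adipose tissue. Whether same-numbered libraries come from the same animal was not tested. No other pairing of the libraries is given by the labels. The cause of these changes was not tested. Depth limits the muscle levels, since 3 reads are 0.0710 to 0.0840 RPM in a cattle muscle library.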
